A study of Mus musculus with 12 samples.

Results

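Toll-like receptors are the pattern-recognition receptors of the innate immune system, and 10 genes of this system were examined in the mouse hippocampus: 6 receptors (Tlr2, Tlr3, Tlr4, Tlr7, Tlr9 and Tlr13), 3 proteins that work with them (Cd14, Ly86 and Cd180) and the adaptor Myd88. They were taken by name as rows of a count table of 55573 genes, and earlier results of these data were known when they were chosen. Each of the 10 had 1 row, and each passed the expression filter (a CPM, the count scaled to the library's total, of at least 1 in at least 3 libraries), as did 15521 genes in all.

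Receptors at the cell surface, such as Tlr2 and Tlr4, sense microbial lipids and proteins, and receptors in endosomes, such as Tlr3, Tlr7, Tlr9 and Tlr13, sense nucleic acids. Most signal through Myd88 to NF-kappa B and IRF transcription factors, and Tlr3 signals through another adaptor. In the brain these receptors are best known from microglia, the resident macrophages, where Cd14, Tlr2 and Tlr4 have been described as receptors for fibrillar amyloid.

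PolyA RNA of whole right hippocampi was sequenced from C57BL/6J mice aged 4.5 months. The mutant mice (genotype APPSwe/Ps1dE9, here APP/PS1) carry a chimeric mouse/human APP with the Swedish mutation and the second transgene of that genotype name, both driven by a prion promoter element, and the wild-type (WT) mice carry neither. Each sex had 4 APP/PS1 and 2 WT animals, with 1 library per animal and totals of 36714316 to 50643565 counts. The comparison asks how the genotype affects the hippocampal transcriptome in females and in males.

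As a check of the genotype labels, App and Prnp did not separate the genotypes (log2 fold changes of -0.00 and -0.04). Reads of the APP transgene are not separated from those of the mouse gene in the table. Thy1, a neuronal surface protein, separated them, at 2187 to 3305 CPM in APP/PS1 and 724 to 750 CPM in WT libraries (log2 fold change 1.79, adjusted p = 3.78e-06, edgeR's quasi-likelihood test). The cause was not tested, and genotypes are given as labelled. Y-chromosome counts matched the sex label in 12 of 12 libraries. APP/PS1 female 1, WT female 2 and APP/PS1 male 2 held summed choroid plexus markers of 3820 to 6821 CPM, against 23.5 to 41.5 CPM in the other libraries, so results were also fitted without these 3.

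The 4 members that passed the test with the sexes averaged are shown first by the DNA just upstream of their genes. The NF-kappa B, IRF and PU.1 families are the factors best known to act on such genes in macrophages. RefSeq promoter windows (GRCm38.p6) were found for 7 of the 10 members. Each stretch runs 5′ to 3′ on the gene's strand and ends before the first base of the gene in GENCODE M21 and before each start site that the RefSeq table gives for it. The stretches are Tlr2 (chr3:83841768-83841858, minus strand), Tlr13 (chrX:106143025-106143203, plus), Ly86 (chr13:37345095-37345207, plus) and Cd180 (chr13:102693297-102693546, plus). Capitals mark matches to 3 short patterns searched on both strands, the PU.1 core GAGGAA, a kappa B pattern GGGNNNNNCC and an IRF core AANNGAAA.
Tlr2: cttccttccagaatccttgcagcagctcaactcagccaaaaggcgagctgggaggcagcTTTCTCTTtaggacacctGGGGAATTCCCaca
Tlr13: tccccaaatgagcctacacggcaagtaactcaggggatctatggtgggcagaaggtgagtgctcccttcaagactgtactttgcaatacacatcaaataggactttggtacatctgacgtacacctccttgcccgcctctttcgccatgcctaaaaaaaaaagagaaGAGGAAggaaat
Ly86: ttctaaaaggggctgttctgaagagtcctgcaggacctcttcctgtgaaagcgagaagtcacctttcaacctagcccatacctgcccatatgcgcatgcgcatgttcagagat
Cd180: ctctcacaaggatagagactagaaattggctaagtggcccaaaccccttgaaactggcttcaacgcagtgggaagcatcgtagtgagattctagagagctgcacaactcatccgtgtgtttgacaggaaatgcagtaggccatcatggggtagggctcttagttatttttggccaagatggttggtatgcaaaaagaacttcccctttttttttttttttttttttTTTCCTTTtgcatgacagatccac

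The Tlr2 stretch held a palindromic kappa B match, read on both strands as 2 overlapping matches, and an IRF core. The Tlr13 stretch held a PU.1 core, and that of Cd180 an IRF core at the end of a long run of T. None of the 3 patterns was in the Ly86 stretch. Of the members not called, Tlr3 held 2 kappa B matches and an IRF core in the 250 bases before its start. Tlr9 held a PU.1 core there and Myd88 an IRF core. The Tlr2, Tlr13 and Ly86 stretches were shorter than that window, at 91, 179 and 113 bases. These patterns are short and common: over 32851 promoters, the 250 bases before the start held a PU.1 core in 23.3%, a kappa B pattern in 45.8% and an IRF core in 21.3%. A match is a description of the letters and not evidence of a bound factor.

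With the sexes averaged, Tlr2, Tlr13, Ly86 and Cd180 were higher in APP/PS1 than in WT hippocampi at a false discovery rate (FDR) under 0.1, that is 4 of the 10 members, and none was lower. Over all genes tested, 1.75% were called higher. All 10 members had a log2 fold change above 0, as had 54.8% of all genes, and 7 of 10 had an unadjusted p under 0.05 in that direction, as had 6.41% of all genes. The median log2 fold change was 0.71 over the members and 0.01 over all genes tested. Fold changes were fitted by edgeR's quasi-likelihood test with 2 RUV factors (estimates of unwanted variation), adjusted p-values are Benjamini-Hochberg values over 15521 genes, and normalized CPM are CPM on scaled library sizes.

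In the normalized CPM, which the RUV factors do not enter, all 8 APP/PS1 libraries lay above all 4 WT libraries for Tlr7, Tlr13, Ly86 and Cd180, 4 of 10 members, against 1.37% of the genes tested. For Tlr2 this held in 7 of the 8 APP/PS1 libraries, for Tlr9 in 6 and for Tlr3 in 5. It held in 3 for Tlr4, in 2 for Myd88 and in 0 for Cd14, where a single WT male lay above every APP/PS1 library.

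**Figure D1:**
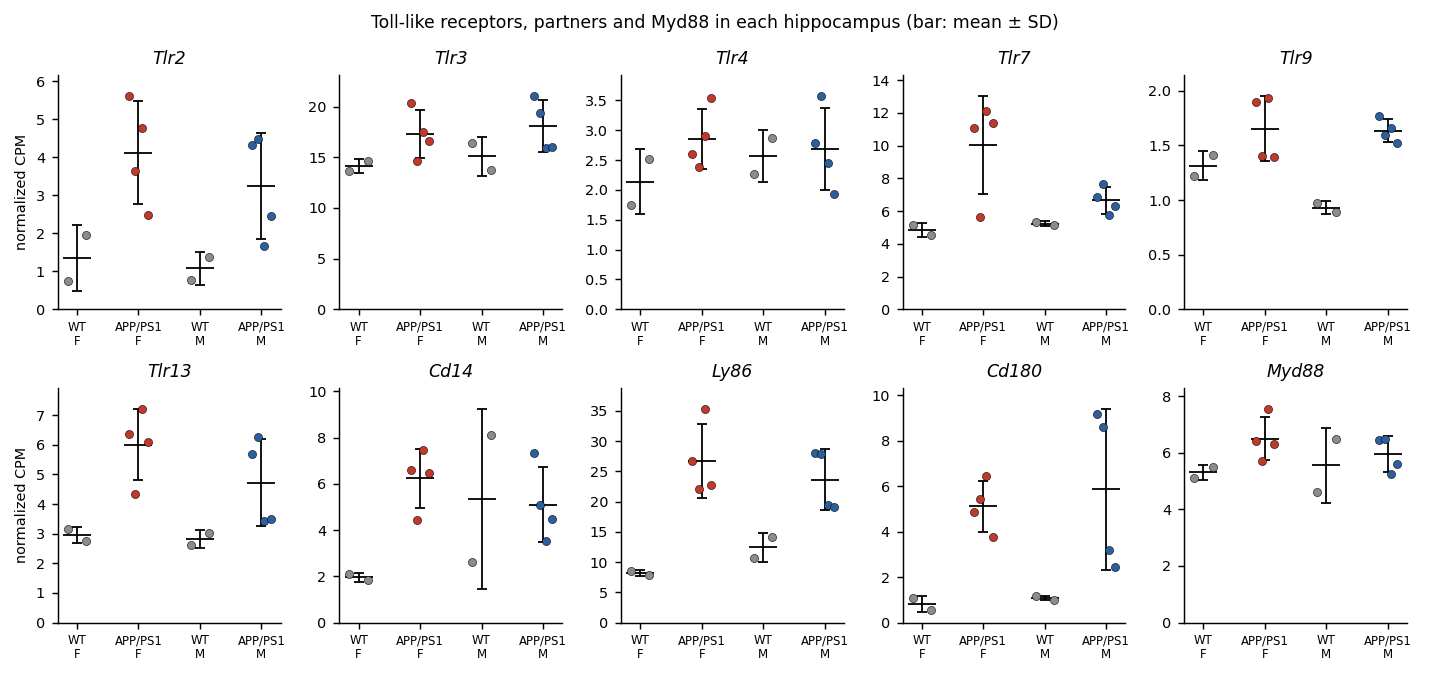
Normalized CPM (vertical axes, from 0) of the 10 members in each of the 12 libraries, with 1 point per animal and bars for the mean ± SD of each sex-by-genotype group (4 APP/PS1 or 2 WT animals). The APP/PS1 points of Tlr7, Tlr13, Ly86 and Cd180 sit above all WT points, Tlr7 in APP/PS1 female 2 at 5.61 lies apart from the other 3 females, and Cd14 in WT male 2 at 8.09 is the highest Cd14 value.

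Tlr2 (ENSMUSG00000027995, chr3:83836272-83841767, minus strand) senses bacterial lipoproteins as a partner of Tlr1 or Tlr6. It stood at 5.62, 3.65, 4.76 and 2.48 normalized CPM in APP/PS1 females and at 0.742 and 1.95 in WT females. In males it stood at 4.32, 4.49, 1.66 and 2.46 in APP/PS1 and at 0.762 and 1.39 in WT. The genotypes did not overlap within either sex, but APP/PS1 male 3 lay below WT female 2. Tlr2 rose 3.05-fold with the sexes averaged (log2 fold change 1.61, SE 0.29, adjusted p = 0.0216). Its 28 to 90 counts in WT libraries make it one of the less precisely counted members, and only 2 of the 4 WT libraries reached a CPM of 1. Tlr2 was also high in the choroid-rich libraries, at 4.49 and 5.62 CPM in the APP/PS1 pair, against 1.66 to 4.76 in the other APP/PS1 libraries, and at 1.95 in the WT one, against 0.742 to 1.39 in the other WT libraries. Without these 3 libraries Tlr2 was still called, and without them and without RUV factors, or without WT female 1 or APP/PS1 male 2, it was not. The part of the choroid plexus in its level was not tested further.

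Tlr13 (ENSMUSG00000033777, chrX:106143204-106160493, plus) is an endosomal sensor of bacterial ribosomal RNA. Its normalized CPM were 6.38, 4.34, 7.20 and 6.09 in APP/PS1 females and 3.15 and 2.76 in WT females. In males they were 5.70, 6.26, 3.44 and 3.50 in APP/PS1 and 2.60 and 3.03 in WT. Every APP/PS1 library exceeded every WT library, with APP/PS1 males 3 and 4 closest to the WT values. Tlr13 rose 1.73-fold (log2 fold change 0.79, SE 0.17, adjusted p = 0.0389). The call was lost without APP/PS1 male 2, without WT female 2, and without both the choroid-rich libraries and the RUV factors, with log2 fold changes between 0.69 and 0.93 over the fits that left out 1 animal.

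Tlr7 (ENSMUSG00000044583, chrX:167304929-167330558, minus) is an endosomal sensor of single-stranded RNA. It stood at 11.1, 5.61, 12.1 and 11.3 normalized CPM in APP/PS1 females and at 5.12 and 4.52 in WT females. In males it stood at 6.87, 7.66, 5.76 and 6.29 in APP/PS1 and at 5.33 and 5.13 in WT. APP/PS1 females 1, 3 and 4 stood well above all other libraries, while APP/PS1 female 2 lay below every APP/PS1 male and close to WT. The averaged difference did not pass the test (log2 fold change 0.64, SE 0.16, adjusted p = 0.110). Without APP/PS1 female 2 it did, at 0.77 (adjusted p = 0.00323), and so it did over all 12 animals with 1 RUV factor, with the likelihood ratio test and with DESeq2 (adjusted p from 0.00323 to 0.556 over 24 alternatives).

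Tlr9 (ENSMUSG00000045322, chr9:106222598-106226883, plus) recognizes DNA with unmethylated CpG. It stood at 1.39 to 1.93 normalized CPM in APP/PS1 libraries and at 0.891 to 1.41 in WT, where 2 of 4 libraries reached a CPM of 1. The genotypes overlapped in females, where WT female 2 stood at 1.41 and APP/PS1 female 4 at 1.39, and not in males, at 1.52 to 1.77 against 0.891 and 0.972. The averaged log2 fold change was 0.57 (SE 0.18, adjusted p = 0.217).

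Tlr3 (ENSMUSG00000031639, chr8:45395665-45411080, minus) recognizes double-stranded RNA and signals through Ticam1 rather than Myd88. It stood at 14.7 to 21.1 normalized CPM in APP/PS1 and 13.7 to 16.4 in WT. These ranges overlapped through WT male 1. The averaged log2 fold change was 0.24 (SE 0.09, 95% interval 0.05 to 0.43, adjusted p = 0.341).

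Tlr4 (ENSMUSG00000039005, chr4:66827584-66930284, plus) is the lipopolysaccharide receptor. Its ranges overlapped, at 1.93 to 3.58 normalized CPM in APP/PS1 and 1.75 to 2.87 in WT, with 3 of 8 APP/PS1 libraries above all WT libraries. The averaged log2 fold change was 0.14 (SE 0.15, adjusted p = 0.83), with a 95% interval from -0.19 to 0.47. Of the 10 members it had the smallest averaged difference.

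Among the partner proteins, Ly86 (MD-1; ENSMUSG00000021423, chr13:37345208-37419036, plus) forms a complex with Cd180 (RP105), which resembles Tlr4 outside the cell but lacks its signalling domain and is known to restrain Tlr4 in macrophages. Ly86 stood at 26.6, 22.1, 35.3 and 22.7 normalized CPM in APP/PS1 females and at 8.59 and 7.86 in WT females. In males it stood at 28.0, 27.8, 19.4 and 19.1 in APP/PS1 and at 10.7 and 14.1 in WT. The lowest APP/PS1 library lay above the highest WT library, WT male 2, and the WT females lay below both WT males. Ly86 rose 2.43-fold (log2 fold change 1.28, SE 0.19, adjusted p = 0.0149). Leaving out single animals gave log2 fold changes of 1.18 to 1.40, and the call was lost only without WT female 2 among those fits (adjusted p = 0.101).

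Cd180 (ENSMUSG00000021624, chr13:102693558-102739629, plus) had the largest averaged difference of the members. It stood at 4.86, 5.42, 6.44 and 3.75 normalized CPM in APP/PS1 females and at 1.06 and 0.565 in WT females. In males it stood at 9.19, 8.62, 3.19 and 2.46 in APP/PS1 and at 1.16 and 1.01 in WT. No APP/PS1 library overlapped WT, while the APP/PS1 males fell into a high and a low pair. Cd180 rose 5.39-fold (log2 fold change 2.43, SE 0.44, adjusted p = 0.0461). WT libraries held 26 to 51 counts of it, and the call was lost without any 1 of the 4 WT animals, at log2 fold changes that stayed between 2.15 and 2.79 (adjusted p up to 0.256).

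Cd14 (ENSMUSG00000051439, chr18:36725067-36726798, minus) hands lipopolysaccharide and other ligands to Tlr4 and Tlr2. It stood at 6.60, 4.44, 7.47 and 6.45 normalized CPM in APP/PS1 females and at 2.09 and 1.82 in WT females. In males it stood at 7.35, 5.07, 3.53 and 4.47 in APP/PS1 and at 2.60 and 8.09 in WT. The females did not overlap, and in the males WT male 2 was the highest of the 6. WT male 2 was also the library with the most monocyte and neutrophil markers, which summed to 7.86 normalized CPM over 6 genes there and to 0.126 to 1.98 in the other libraries, led by S100a8 (175 counts) and S100a9 (199 counts), with Camp at 1 count. Their part in the Cd14 level was not tested. The averaged log2 fold change of Cd14 was 0.78 (SE 0.35, adjusted p = 0.528). Without WT male 2 it was 1.30 (adjusted p = 0.0343).

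Myd88 (ENSMUSG00000032508, chr9:119335934-119341411, minus) is the adaptor that most of these receptors share. It stood at 5.24 to 7.54 normalized CPM in APP/PS1 and at 4.62 to 6.49 in WT, with most libraries inside the shared range. The averaged log2 fold change was 0.19 (SE 0.12, adjusted p = 0.678). Exons of Cd180, Myd88 and Tlr3 overlap antisense exons of Mast4, Acaa1a and Gm45542. The libraries were directional, but the strand option of the counting is not given in the sources used here, so the counts of these 3 may include antisense reads. Among genes named below, exons of Irf5, Irf7, Cxcl10, Il1a and others also overlap antisense exons, so the same holds for their counts. Exons of Ticam2 overlap exons of Tmed7 on the same strand.

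**Figure D2:**
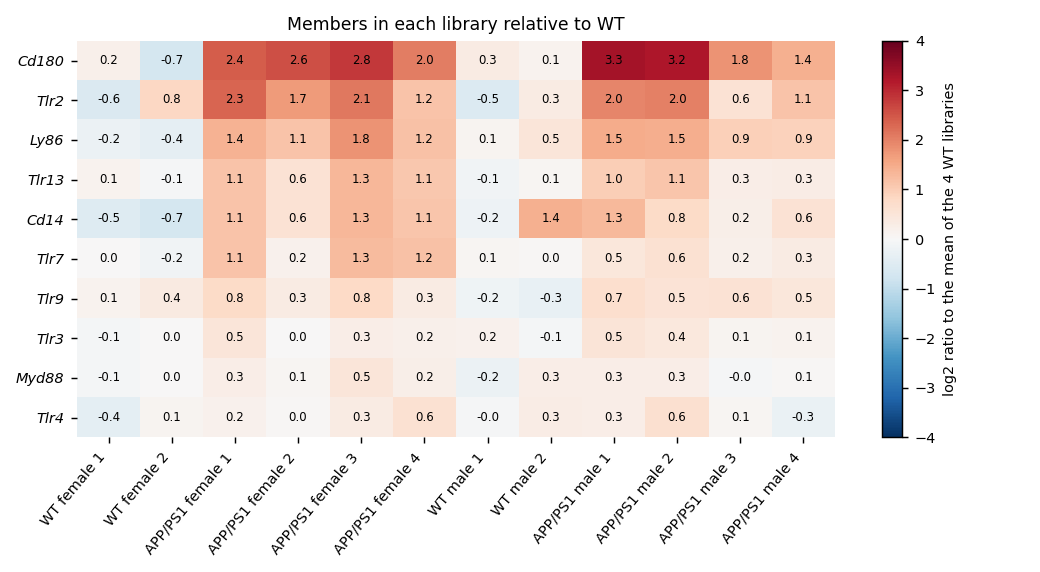
Log2 ratio of each library's normalized CPM to the mean of the 4 WT libraries (color and printed value), with members in rows, ordered by averaged fold change, and the 12 libraries in columns. APP/PS1 female 3 has a median ratio of 1.30 over the members and APP/PS1 male 3 one of 0.25, the highest and the lowest of the APP/PS1 libraries.

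The members varied together across animals. APP/PS1 female 3 was the highest of its group for 7 of the 10 members and APP/PS1 female 2 the lowest for 7. Of the APP/PS1 males, males 1 and 2 were the highest for 5 members each, and males 3 and 4 the lowest for 6 and 4. After the group means were subtracted, the Pearson correlation of log2 normalized CPM over the 12 libraries was positive for 45 of 45 pairs of members, with a median of 0.52. It was highest for Cd14 with Myd88 (0.89) and Tlr13 with Ly86 (0.88) and lowest for Tlr4 with Tlr9 (0.08). The libraries share depth and dissection, which can raise such values, so they are given without a test. The genes outside the set whose residuals were most like the mean member profile were C1qb (r = 0.957), Nudt16 (0.953), Elf4 (0.941), C1qc (0.940) and H2-K1 (0.938), over 12 libraries. C1qb and C1qc encode chains of complement C1q and H2-K1 an MHC class I chain.

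In females, Tlr2 and Ly86 passed the test, 2 of 10 members, where 0.773% of all genes were called higher. Ly86 was 3.24-fold higher in APP/PS1 females (log2 fold change 1.70, SE 0.27, adjusted p = 0.0418), and Tlr2 was 3.72-fold higher (1.90, SE 0.42, adjusted p = 0.0990). The Tlr2 call lies at the edge of the threshold and was lost in 15 of 24 alternatives. The Ly86 call was lost in 6 of 24, among them those without APP/PS1 female 1, WT female 1 or WT female 2. Cd180 had a larger fitted difference and a wider error in females (2.61, SE 0.64, adjusted p = 0.209). All 10 members had a log2 fold change above 0 in females, as had 55.3% of all genes. All 4 APP/PS1 females lay above both WT females for 8 of 10 members, the exceptions being Tlr4 and Tlr9, and for 12.7% of all genes.

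In males, 0 of 10 members passed edgeR's quasi-likelihood test, where 0.161% of all genes were called higher, while 5 members were higher at an unadjusted p under 0.05, as were 3.38% of all genes. Of all genes, the likelihood ratio test called 134 in males and DESeq2 131, against 25 with the quasi-likelihood test. The likelihood ratio test called Ly86 and Cd180 in males, DESeq2 called Tlr2 and Cd180, and the quasi-likelihood test called Tlr2 and Ly86 without the choroid-rich libraries. The fitted log2 fold changes in males were 2.26 for Cd180 (SE 0.62), 1.32 for Tlr2 (SE 0.41), 0.87 for Ly86 (SE 0.26), 0.78 for Tlr9 (SE 0.25) and 0.62 for Tlr13 (SE 0.24). All 4 APP/PS1 males lay above both WT males for these 5 genes and Tlr7, 6 of 10 members, and for 6.71% of all genes. Those of Cd14 (-0.10, SE 0.46) and Tlr4 (-0.08, SE 0.21) were below 0, and that of Cd14 was 0.99 without WT male 2.

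The genotype effect itself was compared between the sexes by the interaction term. None of the 10 members passed the quasi-likelihood test, nor edgeR's likelihood ratio test or DESeq2. Of all genes, the quasi-likelihood test called 0%, the likelihood ratio test 1 gene and DESeq2 2. The largest difference was that of Cd14, whose log2 fold change was 1.77 higher in females than in males (SE 0.69, 95% interval 0.19 to 3.34). Its unadjusted p was 0.0320 and its adjusted p 0.998 by the quasi-likelihood test, and the difference was 0.61 without WT male 2. For Ly86 the difference was 0.83 (95% interval -0.00 to 1.66), for Tlr7 0.69 (-0.03 to 1.41), and for Tlr2 0.57 (-0.71 to 1.86). The intervals of Ly86, Tlr7 and Tlr2 include both 0 and differences as large as the effects, and that of Cd14 excludes 0 only before adjustment. A sex difference was thus neither shown nor bounded closely with 2 WT animals a sex. Of the members, Tlr9 was the one with a larger estimate in males (-0.42, SE 0.36).

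Between females and males with the genotypes averaged, no member differed, and 0.11% of all genes did. At an unadjusted p under 0.05 the count of members was also 0, and the likelihood ratio test and DESeq2 called 0. Tlr7 and Tlr13 lie on the X chromosome, and Tlr7 is known to escape X inactivation in some human immune cells. Females exceeded males by 0.26 for Tlr7 (SE 0.17, adjusted p = 0.892) and by 0.23 for Tlr13 (SE 0.17, adjusted p = 0.915) on the log2 scale. In WT animals Tlr7 was not higher in females, at 5.12 and 4.52 against 5.33 and 5.13 normalized CPM in males.

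**Figure D3:**
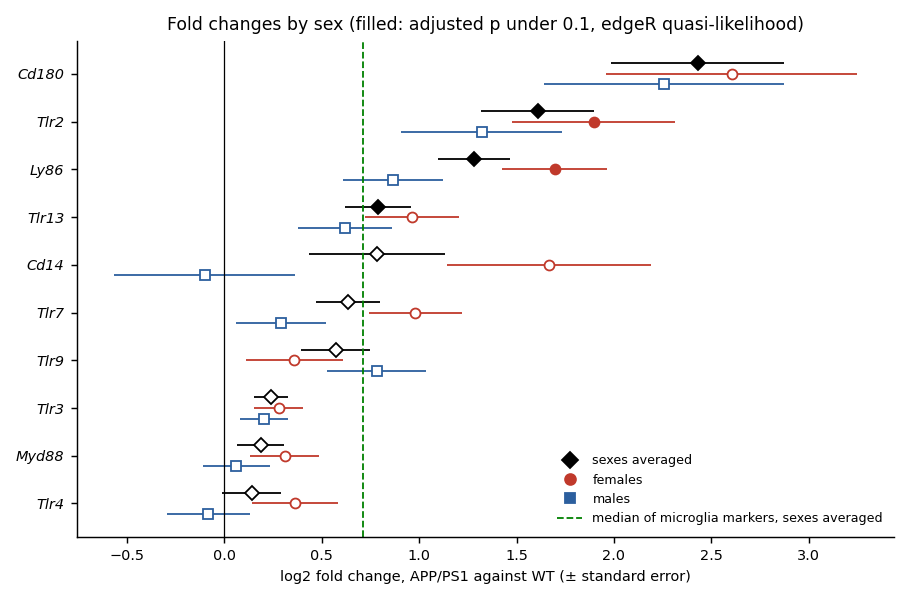
Fitted log2 fold changes of APP/PS1 against WT (horizontal axis, error bars ± SE) for the 10 members with the sexes averaged, in females and in males, filled where the adjusted p was under 0.1. Cd180, Tlr2, Ly86 and Tlr13 are filled for the averaged contrast and Tlr2 and Ly86 for females, no male point is filled, and the dashed line is the median of 12 microglia markers, 0.71.

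Levels were compared between members per kb of exon, which removes the gene length that CPM keeps. On that scale Ly86 was the most abundant member in APP/PS1 (6.92 ± 1.49, SD, n = 8), followed by Tlr3 (3.398 ± 0.449) and Cd14 (3.28 ± 0.86), which did not differ beyond their spread. Ly86 exceeded Tlr3 in 8 of 8 APP/PS1 libraries, but in 1 of 4 WT libraries, where the means were 2.85 ± 0.77 and 2.81 ± 0.25 (SD, n = 4). Myd88 (2.42 in APP/PS1, 2.11 in WT) and Tlr7 (2.04 and 1.23) followed.
Tlr13, Tlr2 and Cd180 formed a close group in APP/PS1, at 1.25, 1.22 and 1.22, with no consistent order between neighbours. In WT their means were 0.671 ± 0.058, 0.402 ± 0.192 and 0.210 ± 0.058 (SD, n = 4), with Tlr2 just above Tlr13 in WT female 2 and just below Cd180 in WT male 1, and Cd180 had the lowest mean of the 10. Tlr4 (0.499) and Tlr9 (0.473) had the lowest means in APP/PS1, and neither order was kept across libraries, since Tlr4 exceeded Tlr9 in 3 of 8. Cd180 thus stood below Tlr9 in 4 of 4 WT libraries and above Tlr4 in 8 of 8 APP/PS1 libraries.

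**Figure D4:**
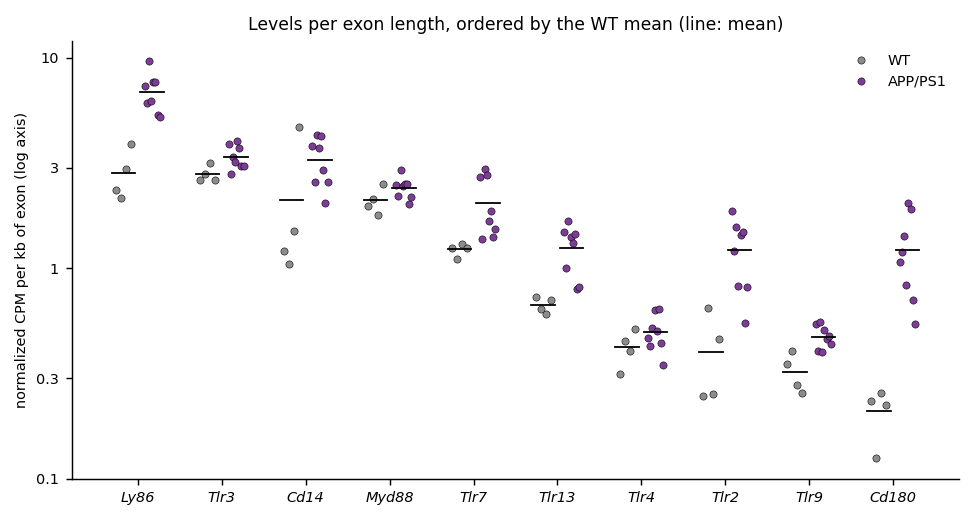
Normalized CPM per kb of exon (log axis) of the 10 members in the 4 WT and 8 APP/PS1 libraries, ordered from the highest to the lowest WT mean, with lines for means. Cd180 has the lowest WT mean (0.210) and an APP/PS1 mean (1.22) equal to that of Tlr2.

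Bulk tissue counts cannot tell more microglia from more RNA per microglial cell, and microglia markers moved with the members. All 12 markers had a higher mean in APP/PS1, and none was at 0. Of the 12, 9 were called higher in the averaged test, as were 1.75% of all genes. Their summed level was 508.9 to 762.5 normalized CPM in APP/PS1 and 332 to 399 in WT, with a median log2 fold change of 0.71. The mean summed level of neuron markers in APP/PS1 was 1.01 times that in WT, that of oligodendrocyte markers 1.03 times and that of endothelial markers 0.934 times, and astrocyte markers summed to 4300 and 4287 CPM. None of these 20 markers was called by edgeR's quasi-likelihood or likelihood ratio test, 1 of them, an endothelial one, had an unadjusted p under 0.05, and DESeq2 called that endothelial gene, Ly6c1, lower. Border macrophage markers summed to 6.70 to 11.3 CPM in APP/PS1 and 6.39 to 11.99 in WT, with 0 of 3 tested genes called by these tools and 1 at an unadjusted p under 0.05. B and T cell markers were near 0, at 0.342 to 0.835 CPM in APP/PS1 and 0.237 to 0.265 in WT, and none of the 7 was tested.

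Set against the mean log2 level of the 12 microglia markers in the same library, the members differed in size. On that scale Cd180 was higher in APP/PS1, by 1.77 in log2, with all 8 APP/PS1 libraries above all 4 WT libraries. Tlr2 was higher by 0.95 (5 of 8 libraries above all WT) and Ly86 by 0.61 (7 of 8). The differences were smaller for Tlr13 (0.17, 5 of 8 libraries above all WT), Cd14 (0.20, 0 of 8), Tlr7 (-0.01, 3 of 8) and Tlr9 (-0.11, 0 of 8). Tlr3 (-0.41), Tlr4 (-0.44) and Myd88 (-0.48) were lower relative to the markers in APP/PS1, with 0 of 8 APP/PS1 libraries above all WT. These ratios are descriptions without a test, and how far the marker level accounts for the members was not tested. They were computed for the members only, so the counts of libraries have no share over all genes to be read against.

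The rest of the pathway was described through lists of its genes. Of the other Toll-like receptors, Tlr1, a partner of Tlr2, rose (log2 fold change 1.58, SE 0.33, adjusted p = 0.0370), at 0.640 to 1.80 normalized CPM in APP/PS1 and 0.261 to 0.526 in WT, without overlap. Its call was lost without WT female 2, without WT male 2 and without the choroid-rich libraries, with or without RUV factors. Tlr6 (0.63, adjusted p = 0.597) and Tlr12 (0.61, adjusted p = 0.345) did not pass. Tlr5 (4 to 23 counts a library), Tlr8 (2 to 21) and Tlr11 (0 to 6) had few counts and were below the filter, so differences in them were not tested in the main fit.

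Of 8 partner and trafficking genes tested, 1 was called, where 1.75% of all genes were called higher. Unc93b1, which carries the nucleic acid receptors from the endoplasmic reticulum to endosomes, rose (0.53, SE 0.11, adjusted p = 0.0391), at 13.6 to 20.4 normalized CPM in APP/PS1 and 11.8 to 12.4 in WT. Its call was lost in 8 of 24 alternatives, among them those without any 1 WT animal, without APP/PS1 male 2 and without the choroid-rich libraries, at log2 fold changes of at least 0.47. Ly96 (MD-2), the partner of Tlr4 that binds lipopolysaccharide, was below the filter, at 14 to 41 counts in APP/PS1 and 11 to 51 in WT. Lbp, which binds lipopolysaccharide in plasma, had a log2 fold change of -0.52 (adjusted p = 0.275, quasi-likelihood test). It was called lower by the likelihood ratio test and DESeq2. Its genotypes overlapped widely, at 1.18 to 28.3 normalized CPM in APP/PS1 (mean 6.94) and 2.10 to 20.9 in WT (mean 7.42). The median of the list was 0.00.

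None of 18 adaptors and kinases was called by edgeR's quasi-likelihood test, 2 had an unadjusted p under 0.05, the likelihood ratio test called 2 and DESeq2 1. Their median log2 fold change was 0.05. Of all 15521 genes, 1502 had an unadjusted p under 0.05 in either direction by the quasi-likelihood test. That test called 297 genes, the likelihood ratio test 434 and DESeq2 431. Counts of 1 or 2 in lists this short are not read as results about the pathway. Ticam2 (0.81, adjusted p = 0.159) and Pik3ap1 (0.75, adjusted p = 0.253), singled out after their values were seen, had the largest differences, whereas Irak1, Irak4, Traf6, Tirap and Ticam1 lay between -0.04 and 0.21. Of 8 transcription factors 1 was called by the quasi-likelihood test, Irf5, which acts downstream of Myd88 (0.71, SE 0.11, adjusted p = 0.00729). Irf7 (0.78, adjusted p = 0.255 by that test) was called by the likelihood ratio test and not by DESeq2. Irf5 stood at 5.46 to 7.68 normalized CPM in APP/PS1 and at 3.65 to 4.12 in WT, without overlap, and was called under each of its 24 alternatives. The NF-kappa B subunits Nfkb1, Nfkb2, Rel, Rela and Relb lay between -0.03 and 0.27. None of 10 inhibitors was called by the quasi-likelihood test, the likelihood ratio test or DESeq2. Their median was -0.08, and 2 of them, Tollip (-0.11) and Rnf216 (-0.11), named after their values were seen, had an unadjusted p under 0.05. Il1rl1, also of this list and named after its values were seen, was below the filter and was not tested. It stood at 0.342 to 1.08 normalized CPM in APP/PS1 and 0.186 to 0.326 in WT, without overlap.

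Of 13 cytokine and enzyme genes that the pathway can induce, 9 were below the filter, Tnf, Il1b and Il6 among them at 0 to 37 counts a library. Ccl4, singled out among these 9 after its values were seen, had 5 to 60 counts in APP/PS1 and 0 to 2 in WT libraries, without overlap, and was not tested. Of the 4 tested, the chemokine genes Ccl3 (4.22, SE 0.39, adjusted p = 1.26e-04) and Cxcl10 (2.79, SE 0.47, adjusted p = 0.0125) rose. Ccl3 stood at 0.797 to 2.16 normalized CPM in APP/PS1 and at 0.0526 to 0.196 in WT, on 35 to 94 against 2 to 9 counts. Cxcl10 overlapped slightly, at 0.431 to 3.20 in APP/PS1 and 0.0396 to 0.434 in WT, on 17 to 121 against 2 to 20 counts. Il1a (1.02, adjusted p = 0.117) and Ptgs2 (-0.03, adjusted p = 0.958) did not pass. With the sexes averaged, the quasi-likelihood test called 5 genes of these lists, Tlr1, Unc93b1, Irf5, Ccl3 and Cxcl10, all of them higher. Over all genes tested, 1.75% were called higher. In WT libraries Tlr1, Ccl3 and Cxcl10 reached at most 0.526, 0.196 and 0.434 normalized CPM. They thus passed the filter only through APP/PS1 libraries, and their shared direction is no independent support. Of the cytokine and enzyme genes, the likelihood ratio test and DESeq2 also called Il1a.

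**Figure D5:**
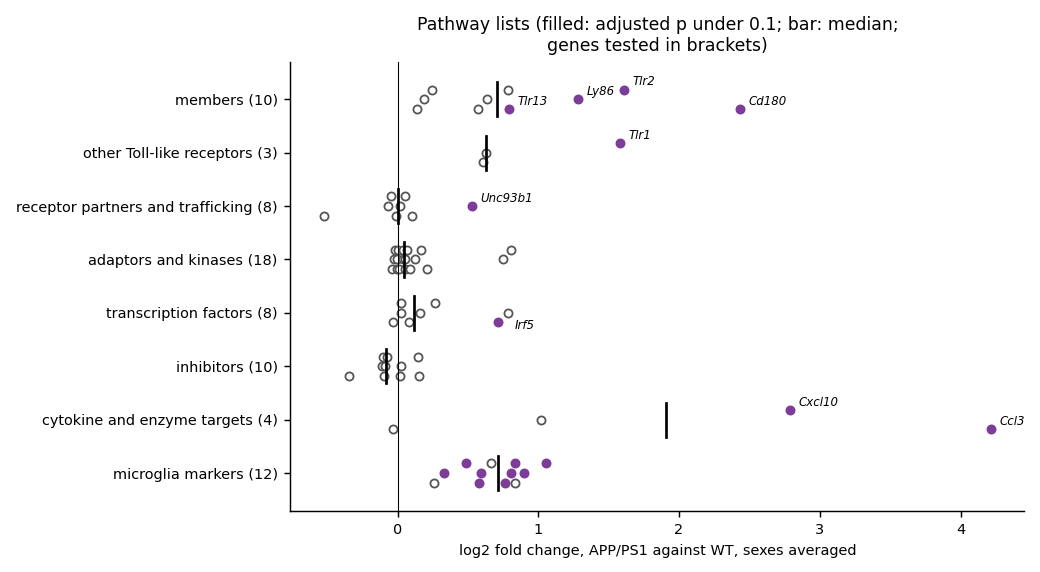
Averaged log2 fold changes (horizontal axis) of the tested genes of each pathway list and of the microglia markers, filled where the adjusted p was under 0.1, with a bar at each median. The adaptors and kinases cluster around a median of 0.05, the members around 0.71, and Ccl3 lies farthest to the right at 4.22.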

How the data were processed

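The data were RNA-seq counts of 12 whole hippocampi. The deposited values are raw counts per Ensembl gene, which the authors made with Trimmomatic for trimming, STAR for alignment to GRCm38 and HTSeq for counting. Versions, the annotation release and the strand option are not given in the sources used here. Of the 55573 identifiers, 55480 matched GENCODE M21, which gave symbols and positions. Totals of 36714316 to 50643565 counts leave the spread between animals as the main error, except for genes with few counts. All 14 within-group pairs of libraries differed by more than the sampling noise (chi-square per degree of freedom 12.59 to 57.22).

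Genes with a CPM of at least 1 in at least 3 libraries were tested. The study words this filter on the log2 scale, which was an alternative, but the CPM form was chosen because it leaves the number of genes that the study gives. Upper-quartile factors, the 4 sex-by-genotype groups and 2 RUVg factors entered the quasi-likelihood test of edgeR 4.0.16 in R 4.3.3, whereas the study used the likelihood ratio test. RUVg was re-implemented, and its control genes left out the 5000 genes ranked highest by a first pass over the groups. Contrasts were two-sided, with Benjamini-Hochberg adjustment over all genes and calls at an FDR under 0.1. The script was tested on simulated data. Normalized CPM carry no RUV correction.

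All 10 members were named, then the called genes of each pathway list (at most 5), every other Toll-like receptor, the 5 genes most like the mean member profile, and the transgene check genes, of which not all are reported here. The members and the lists were chosen with earlier results of these data known, so no list is independent evidence. Alternatives were the likelihood ratio test, DESeq2 (1.42.0), TMM scaling, other filters, fewer RUV factors, an FDR of 0.05, a replicate block, no interaction term, each sex alone, and leaving out single animals or the 3 choroid-rich libraries. Fits that leave 1 WT animal in a sex assume that it varies like the other groups. RefSeq promoter sequences are those of GRCm38.p6.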

Additional observations from a re-analysis of the deposited data

Results flagged for a closer look

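Tlr7 in APP/PS1 female 2 stood at 5.61 normalized CPM, far below the other 3 APP/PS1 females (11.1 to 12.1) relative to the range of that group, by Dixon's criterion for 4 samples. Chance alone gives such a gap in about 1 in 20 groups. The criterion was applied to each of the 10 members in both APP/PS1 groups, so a gap like this somewhere among them is not unusual. APP/PS1 female 2 was the lowest of its group for 7 of the 10 members, and Tlr7 passed the averaged test without it.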

How the results depend on the processing

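The averaged log2 fold change of each member kept its sign in every alternative run. The likelihood ratio test and DESeq2 called more of the 15521 genes in all. With the sexes averaged they called 434 and 431, against 297 in the main fit. In females they called 320 and 311 against 126, and in males 134 and 131 against 25. The number of members called with the sexes averaged, 4, was 6 with the likelihood ratio test (Tlr7 and Tlr9 added), 5 with DESeq2 and 5 with 1 RUV factor (Tlr7 added in both), 1 with the replicate block (Cd180), 1 without the choroid-rich libraries and RUV factors (Ly86), and 1 to 5 when 1 animal was left out (Tlr13 and Ly86 remained without WT female 1, Tlr2 without WT female 2, and Ly86 and Cd180 without APP/PS1 male 2). In females the 2 calls became 5 with DESeq2, 6 with the likelihood ratio test, 1 at an FDR of 0.05, 0 with no filter, 1 with no RUV factors, 1 with the replicate block, 1 with TMM scaling, 0 without the choroid-rich libraries and RUV factors, and 0 to 4 with 1 animal omitted (0 without APP/PS1 female 1 or either WT female, 4 without APP/PS1 male 1). In males the 0 calls became 2 with DESeq2, 2 with the likelihood ratio test and 2 without the choroid-rich libraries. Counts of 5 called genes in the other lists became 8 with DESeq2, 10 with the likelihood ratio test, 2 with the log2 CPM filter, 8 with no filter, 2 without the choroid-rich libraries and RUV factors, and 3 to 7 with 1 animal omitted (3 without WT female 2).

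No estimate that changed sign was called. The male log2 fold change of Cd14 (-0.10) was 0.058 with the replicate block, 0.025 without the choroid-rich libraries, and -0.72 to 0.99 with 1 animal omitted (lowest without WT male 1, highest without WT male 2). That of Tlr4 (-0.08) was 0.068 with males alone, 0.065 with no RUV factors, and -0.27 to 0.19 with 1 animal omitted, and that of Myd88 (0.06) -0.17 to 0.34. The interaction of Tlr3 (0.08) was -0.083 without the choroid-rich libraries and -0.080 to 0.22 with 1 animal omitted, that of Cd180 (0.35) -0.15 to 1.12 and that of Myd88 (0.25) -0.057 to 0.45. Tlr9 was not tested under the log2 CPM filter, nor were Tlr1, Ccl3 and Cxcl10 of the other lists. Cxcl10 was also not tested without the choroid-rich libraries. The causes of the changes of sign were not tested. Same-numbered APP/PS1 females and males did not deviate together (r = -0.384, -0.411, 0.289 and -0.117), so the numbers were not taken as pairs. Few counts limit Tlr2, Tlr9 and Cd180 of the members, and Tlr1, Ccl3 and Cxcl10 of the other lists.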
